A study of Homo sapiens with 78 samples.

Results

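The 49 genes described here encode proteins that cells make for mitosis, and they were followed in single sorted cells of A375 and Jurkat, established human lines from a melanoma and from a T-cell leukemia. The members were listed by name for their role in mitosis, and all 49 were found among the 37316 genes that had any count in the series. Cells were stained with 7-AAD to tell live from dead, A375 cells were labelled with a CD47 antibody and sorted singly into PBS, Jurkat cells were labelled with a CD81 antibody and sorted singly into lysis solution, and strand-specific libraries of all RNA classes were prepared with either the SMARTer Stranded Pico Input kit (here the Pico kit) or the SMART-Seq Stranded kit (here the SMART-Seq kit). No drug or synchronization is named for these cells. Wells with at least 200000 estimated counts were used, which left 18 of 18 Jurkat wells with each kit, 17 of 21 A375 wells with the Pico kit and 16 of 21 A375 wells with the SMART-Seq kit. Each well held 1 cell and no separate cultures were named, so each cell line with each kit was 1 sample. No test between groups was therefore possible, SDs describe the spread from cell to cell, and intervals cover counting error only, over reads that were not collapsed to molecules. The culture medium, the sort buffer, the antibody and neighbouring index numbers went with the cell line. Their part in a difference between the lines thus cannot be told apart from the line itself. Within each line the kits also took separate runs of index numbers, whose part cannot be told apart from the kit.

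Total counts ran from 413959 to 1443975 in Jurkat wells and from 231540 to 2567265 in A375 wells. T-cell markers had the higher sum in all 36 Jurkat wells and A375 markers in all 33 A375 wells. In 3 A375 wells under 50% of the counts were protein coding, namely 4.84% and 10.5% with the Pico kit and 44.4% with the SMART-Seq kit, and the summed level, the counts of members and the correlations of summed levels are given with and without them, while values of single members in A375 include them unless stated. No pair of the 78 deposited wells held identical values.

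Mitosis begins when cyclin-dependent kinase CDK1, bound to cyclins A and B, phosphorylates proteins that condense chromosomes, break down the nuclear envelope and build the spindle. The spindle checkpoint holds the anaphase-promoting complex (APC/C) back until kinetochores are attached, and the APC/C then tags securin and cyclin B for destruction, sister chromatids part, and kinesins and midzone proteins drive cytokinesis. Most of these genes are switched on together in G2 and M phase, through promoter elements known as the cell cycle genes homology region (CHR), bound by the DREAM and MuvB complexes, and CCAAT boxes, bound by NF-Y. Their messages fall again as cells enter G1, so in growing cells that are not synchronized the level in 1 cell depends on its stage.

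The upstream sequence of the members carried these letters more often than promoters at large. RefSeq promoters (GRCh38.p14, the 250 bases before the start, the first listed start of each gene) were available for 43 of the 49 members, the others being AURKA, BIRC5, BUB3, TPX2, TTK and UBE2C. The CHR letters TTTGAA or TTCGAA stood on either strand in 25 of the 43 (58.1%), against 14.6% of all 27305 promoters. The letters CCAAT stood on either strand in 33 (76.7%), against 33.0%, and both kinds in 21 (48.8%), against 5.24%. The 27305 promoters were not matched to the members in base composition or expression, and a match is a run of letters, not a bound site. Below are stretches that span the matches, in capitals, for members that return later: CDK1 and CDC20 with both kinds close together, MKI67 and TOP2A as the members with many counts, CENPF and CCNB1 with CCAAT letters alone, ECT2, which was among the members that followed the others least in Jurkat, and KIF20B, which was under 2-fold apart between the lines with both kits. TTCAAA is TTTGAA and ATTGG is CCAAT on the other strand, and in MKI67 a TTTGAA and an ATTGG share 1 base.
CDK1 (chr10:60778165-60778190, plus strand): ataaaTTTGAActgtgCCAATgctgg
CDC20 (chr1:43358798-43358935, plus strand): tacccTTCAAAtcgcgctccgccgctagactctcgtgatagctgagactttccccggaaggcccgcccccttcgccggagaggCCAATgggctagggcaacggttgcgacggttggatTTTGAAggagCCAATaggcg
MKI67 (chr10:128126438-128126526, minus strand): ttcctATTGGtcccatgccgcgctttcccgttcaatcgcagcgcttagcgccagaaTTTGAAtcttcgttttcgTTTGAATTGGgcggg
TOP2A (chr17:40417940-40418145, minus strand): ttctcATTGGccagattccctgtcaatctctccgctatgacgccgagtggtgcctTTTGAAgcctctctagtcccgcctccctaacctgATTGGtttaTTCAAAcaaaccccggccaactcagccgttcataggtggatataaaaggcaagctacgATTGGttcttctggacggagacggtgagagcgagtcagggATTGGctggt
CENPF (chr1:214603096-214603171, plus strand): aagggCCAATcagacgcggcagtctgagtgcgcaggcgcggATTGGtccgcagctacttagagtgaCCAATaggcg
CCNB1 (chr5:69167058-69167104, plus strand): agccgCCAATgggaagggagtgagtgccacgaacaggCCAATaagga
ECT2 (chr3:172750606-172750677, plus strand): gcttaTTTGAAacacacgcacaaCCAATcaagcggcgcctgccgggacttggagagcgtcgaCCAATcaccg
KIF20B (chr10:89701454-89701501, plus strand): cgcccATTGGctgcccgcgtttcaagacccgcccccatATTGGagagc

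The 49 genes together made up a small and very uneven part of each cell's RNA. A well's summed level was the estimated counts of all members per 1000000 counts of that well (CPM). In Jurkat wells with the Pico kit it was 7447 CPM ± 7289 (SD, n = 18 wells), with a lowest well of 1448, a median of 4367 and a highest of 28281, a 19.5-fold range. In Jurkat wells with the SMART-Seq kit it was 7623 ± 5189 (n = 18), running from 1171 through a median of 7048 to 18371. The 2 kits thus gave Jurkat means that differed by far less than the spread between cells. In A375 wells with the Pico kit the level was 1952 ± 2091 (n = 17), from 17.3 through 1013 to 5864, and without the 2 wells of low protein coding share it was 2186 ± 2121 (n = 15, lowest 342, median 1043). In A375 wells with the SMART-Seq kit it was 3392 ± 5618 (n = 16), from 453 through 1051 to 18580, and without the well of low protein coding share 3463 ± 5808 (n = 15, median 866). The ranges of the lines overlapped with both kits, and 2 A375 wells with the SMART-Seq kit, at 16299 and 18580 CPM, lay as high as the highest Jurkat wells of that kit while the next A375 well stood at 5101.

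**Figure D1:**
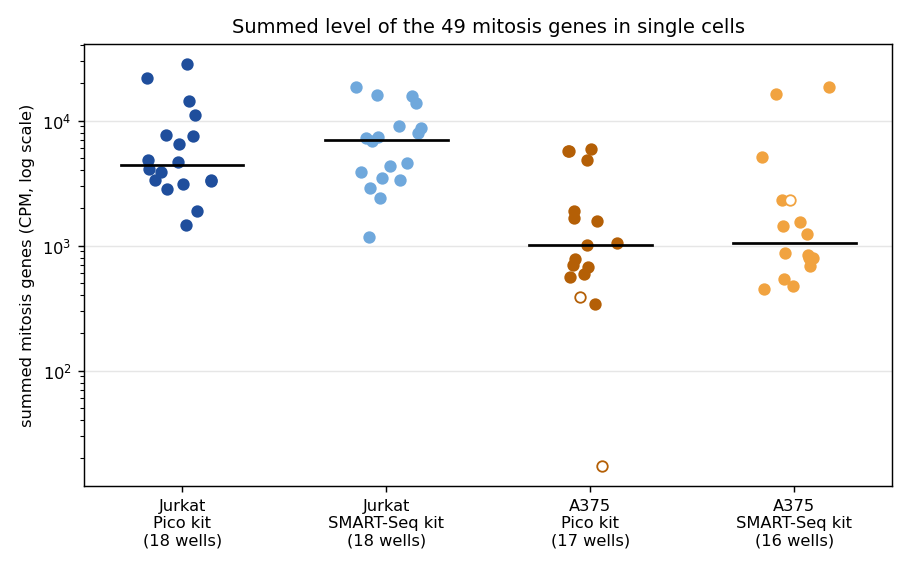
Summed level of the 49 mitosis genes in each well (CPM, log axis) for each cell line and kit, with 1 point a well and a bar at the median; open points are the 3 A375 wells under 50% protein coding. The medians are 4367 and 7048 CPM in Jurkat and 1013 and 1051 CPM in A375, and the point ranges of the lines overlap.

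With the wells of a group pooled, the sum was 7409 CPM (95% Poisson interval 7370 to 7449) in Jurkat and 2229 (2207 to 2251) in A375 with the Pico kit, and 8644 (8596 to 8693) and 4506 (4472 to 4540) with the SMART-Seq kit. A375 lay below Jurkat by 3.81-fold with the Pico kit and by 2.25-fold with the SMART-Seq kit in the mean over wells. By the median over wells the SMART-Seq difference was 6.71-fold, since the mean of A375 there rested on few wells: leaving out the well at 18580 CPM made it 3.20-fold. The chromosome protein gene MKI67 took the largest share of the members' counts in Jurkat, 17.5% and 13.2% with the Pico and SMART-Seq kits, against 7.27% and 6.26% in A375. In A375 the centromere protein gene CENPF led instead, with 10.7% and 11.3%, against 8.08% and 8.59% in Jurkat.

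Compared per length, in TPM, which divides counts by transcript length, the leading gene of each role list differed between the roles. SMC4, the ATPase core of condensin (chr3:160399274-160434954, hg38), had 241 TPM ± 131 in Jurkat with the Pico kit (lowest 28.6, median 236, highest 444) and 153 ± 62.6 with the SMART-Seq kit (21.9, 153, 257). In A375 its mean also ranked first among the members, at 89.9 ± 101 (0, 67.5, 329) and 93.9 ± 95.2 (7.80, 58.5, 337). SMC4 was thus present in every Jurkat well, and the lines overlapped. UBE2S, the enzyme that extends ubiquitin chains for the APC/C, had medians of 51.8 and 132 TPM in Jurkat (ranges 0 to 477 and 11.8 to 401) and 23.2 and 31.1 in A375 (0 to 189 and 1.17 to 310). The pseudogene copies UBE2SP1 and UBE2SP2 also received counts (463 for UBE2SP2 in Jurkat with the Pico kit), so the level of UBE2S is uncertain. BUB1B, a checkpoint protein that binds CDC20, had medians of 115 and 99.2 TPM in Jurkat (highest 402 and 277) and 15.9 and 0 in A375 (highest 178 and 156), with wells at 0 in all 4 groups.

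CKAP5, which lengthens microtubules (chr11:46743048-46846308, hg38), had medians of 138 and 61.8 TPM in Jurkat (ranges 6.95 to 558 and 9.48 to 164) and 60.9 and 77.2 in A375 (0 to 163 and 10.7 to 259). Its mean was second among the members in both A375 groups, and its SMART-Seq median there lay above that of SMC4 (58.5). PRC1, which bundles midzone microtubules, had medians of 79.5 and 89.1 TPM in Jurkat (highest 333 and 209) and 24 and 15.1 in A375 (highest 132 and 566). BIRC5 (survivin), a subunit of the chromosomal passenger complex, had medians of 51.8 and 51.8 in Jurkat (highest 266 and 460) and 0 and 0.444 in A375 (highest 27.1 and 104). Both genes were at 0 in the lowest well of each group. CCNB1, the cyclin B1 gene, had medians of 5.62 and 44.8 TPM in Jurkat (highest 302 and 283) and 2.95 and 6.42 in A375 (highest 57.3 and 418), again from 0. CENPF had medians of 30.6 and 48.2 TPM in Jurkat (2.73 to 263 and 7.21 to 170) and 16 and 7.56 in A375 (0 to 147 and 0 to 262). KIF2C, a kinesin that takes microtubules apart, led the motors with medians of only 9.79 and 41.6 TPM in Jurkat (highest 270 and 153) and 0 and 3.77 in A375 (highest 91.4 and 106).

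Most members were seen in some cells and missed in others. A member was called detected with at least 5 counts, and by that rule Jurkat wells held 35.1 ± 9.93 and 39.1 ± 10.6 of the 49 members with the Pico and SMART-Seq kits, and A375 wells 23.2 ± 15.6 and 24.4 ± 13.4 (SD over wells, or 26.1 and 24.7 without the wells of low protein coding share). With every well thinned to 200000 counts the means were 30.4 and 34.5 in Jurkat and 16.4 and 17.4 in A375, so the order of the lines stayed at equal depth. Every Jurkat well held CENPF, CKAP5, SMC2, SMC4 and NCAPD2 with the Pico kit. With the SMART-Seq kit 8 members were in every Jurkat well and 48 in at least 50% of them. In A375 BUB3, CKAP5 and SMC4 were in every well with the SMART-Seq kit. No member was with the Pico kit, where the well of 4.84% protein coding counts held 0 members. Without the Pico wells of low protein coding share, the lowest well had 27.9 TPM of CKAP5 and 2.61 TPM of SMC4. The median coefficient of variation of a member over wells was 139% and 100% in Jurkat and 160% and 202% in A375. KIF20A, a motor of the late spindle, was the rarest in A375: it was detected in 1 of 17 wells with the Pico kit, at 5.29 CPM, and in 3 of 16 with the SMART-Seq kit, against 6 and 8 of 18 Jurkat wells.

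**Figure D2:**
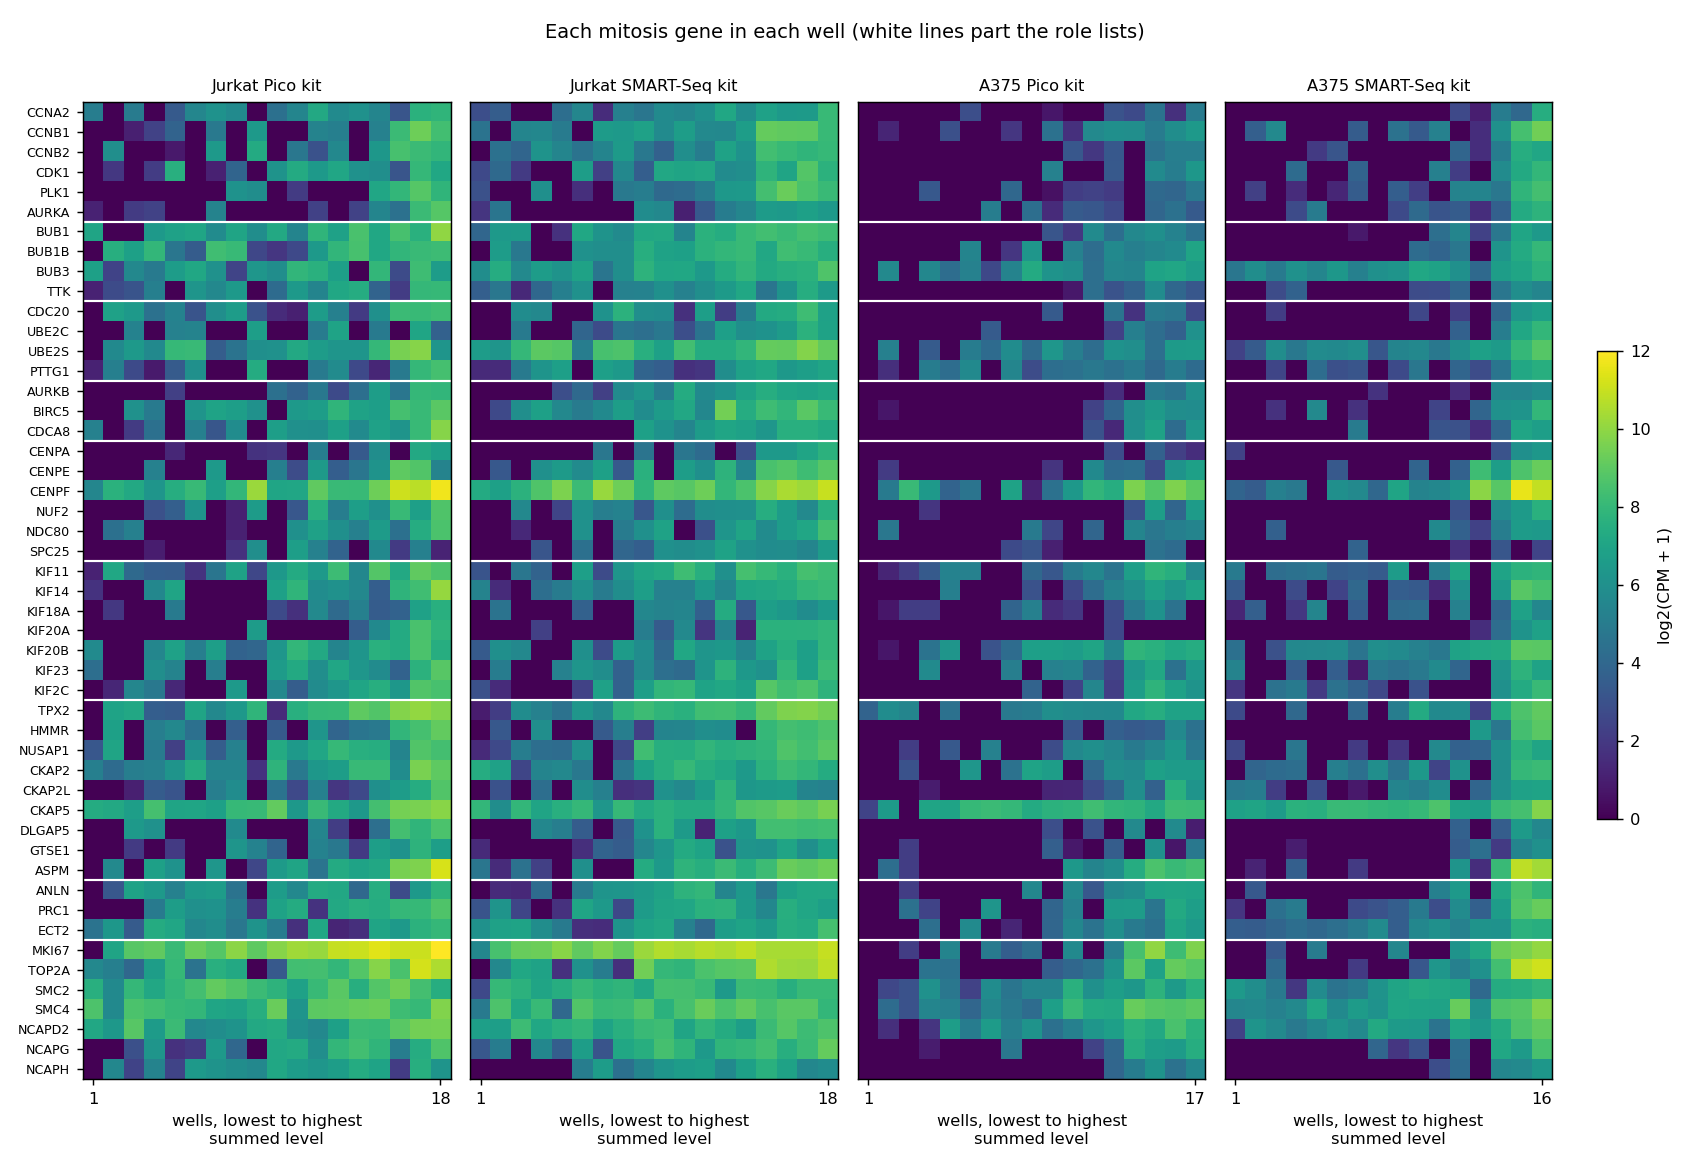
CPM of each member in each well, as log2(CPM + 1) in color, for the 4 groups, with wells ordered from the lowest to the highest summed level and members grouped by role. Most members are near 0 in most A375 wells and filled in the wells at the right, while SMC4, CKAP5 and BUB3 are filled across most wells of each group.

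The comparison of A375 with Jurkat asked which members differed between the lines. A gene was compared when it had at least 10 pooled CPM in 1 of the groups, and it was called when the ratio of pooled CPM was at least 2 either way, a rule of size and not a test. With the Pico kit 44 of 49 members were called lower in A375 and 0 higher. Of all 12102 genes compared there, 24.3% were called lower and 27.7% higher. With the SMART-Seq kit 28 were called lower and 0 higher, against 21.7% lower and 26.6% higher of 12054 genes. The median log2 ratio of the members was -1.95 (3.87-fold lower) and -1.14 (2.21-fold lower), against 0.013 and 0.021 over all genes compared. The SMART-Seq count depended on single wells: with 1 well left out at a time it ran from 24 to 42, and it was 42 without the A375 well at 18580 CPM. The Pico count ran from 37 to 46. Without the 3 wells of low protein coding share the counts were 44 and 27. The same 28 members were called in both kits, 16 in the Pico kit only, and BUB3, KIF20B, CKAP2L, CKAP5 and SMC4 in neither. The share of all genes compared that was called in both kits was not computed.

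**Figure D3:**
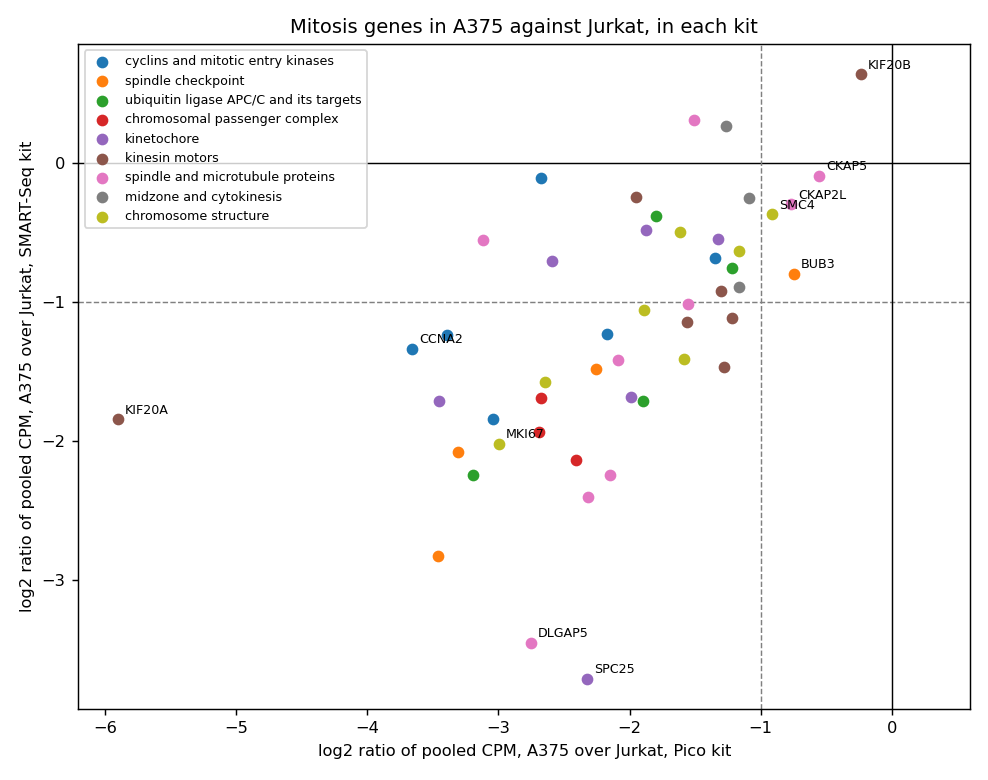
Log2 ratio of pooled CPM, A375 over Jurkat, for each member with the Pico kit (horizontal axis) and the SMART-Seq kit (vertical axis), colored by role; solid lines are at 0 and dashed lines at a 2-fold lower level. All 49 members lie left of 0 and 46 lie below 0, with KIF20B, ASPM and PRC1 above it.

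Of the 6 cyclins and entry kinases all 6 were called lower in A375 with the Pico kit and 4 with the SMART-Seq kit. Values of single wells are given below as the median and the highest CPM, with the lowest well at 0 unless stated. CCNA2 (cyclin A2) had 43.5 and 231 CPM in Jurkat and 0 and 30.4 in A375 with the Pico kit, and 44.9 and 273 against 0 and 177 with the SMART-Seq kit. Its pooled log2 ratios were -3.66 (95% interval -3.99 to -3.33) and -1.34 (-1.51 to -1.17). CCNB2 (cyclin B2) had 16.4 and 366 CPM in Jurkat against 0 and 33.8, and with the SMART-Seq kit 51.4 and 329 against 0 and 178. CDK1 had 36.6 and 257 against 0 and 80.1, and 57.8 and 443 against 0 and 242. PLK1, the kinase that drives spindle assembly and mitotic exit, had 0 and 457 against 0.450 and 28, and 29 and 606 against 3.72 and 342. For PLK1 with the Pico kit the medians were near 0 in both lines, so its pooled log2 ratio of -3.39 rested on the high Jurkat wells, and 6 of 18 Jurkat and 7 of 17 A375 wells had at least 5 counts. AURKA and CCNB1 were called with the Pico kit alone (log2 ratios -2.68 and -1.35) and stood at -0.11 and -0.68 with the SMART-Seq kit.

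Of the 4 spindle checkpoint genes 3 were called lower with both kits. BUB1, a kinase of the unattached kinetochore, had 128 and 1045 CPM in Jurkat against 0 and 61.4 in A375 with the Pico kit, and 142 and 346 against 0 and 130 with the SMART-Seq kit. Its pooled ratios, 11-fold and 7.12-fold lower in A375, were among the largest of any member. BUB1B had 163 and 359 against 18.3 and 129, and 116 and 314 against 0 and 251. TTK, the kinase that recruits the checkpoint proteins, had 38.4 and 263 against 0 and 55.3, and 38.6 and 177 against 2.90 and 59.2. BUB3, a checkpoint subunit with further roles outside mitosis, was at log2 -0.75 (-0.85 to -0.64) and -0.79 (-0.89 to -0.70), short of 2-fold.

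Of the APC/C activator, enzymes and target, 4 of 4 were called with the Pico kit and 2 with the SMART-Seq kit. CDC20, the APC/C activator, had 50.2 and 306 CPM against 0 and 30.7, and 55.6 and 304 against 0 and 108. UBE2S had 76.3 and 889 against 31.7 and 93.6, and 293 and 868 (lowest 32.6) against 52.8 and 458 (lowest 4.13). UBE2C, which starts the chains, and PTTG1 (securin) stood at log2 -1.80 and -1.22 with the Pico kit and at -0.38 and -0.75 with the SMART-Seq kit. Of the 14 genes of the APC/C core itself, 1 was called lower and 1 higher with the Pico kit, 1 lower and 0 higher with the SMART-Seq kit, with median log2 ratios of -0.047 and -0.38.

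All 3 genes of the chromosomal passenger complex were called lower with both kits. AURKB, its kinase, had 4.67 and 258 CPM against 0 and 63.7, and 52.4 and 177 against 0 and 58.5. BIRC5 had 94.5 and 492 against 0 and 92.1, and 97.3 and 699 against 1.15 and 247. CDCA8 (borealin) had 53.9 and 913 against 0 and 118, and 55.9 and 192 against 0 and 133. Each of the 3 was detected in 3 to 5 A375 wells per kit and in 10 to 16 Jurkat wells.

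Of the 6 kinetochore genes 6 were called with the Pico kit and 3 with the SMART-Seq kit. CENPA, the centromere histone, had 0 and 150 CPM against 0 and 12.3, and 3.22 and 206 against 0 and 80.3. NDC80 had 20.4 and 390 against 0 and 42.8, and 42.5 and 340 against 0 and 96.4. SPC25, which like NDC80 belongs to the complex that grips microtubules, had 1.09 and 103 against 0 and 21.8, and 31.7 and 119 against 0 and 13. SPC25 had the largest fold with the SMART-Seq kit, 13.1-fold lower in A375, on 46.5 counts in all A375 wells together. The other complex member NUF2, the motor CENPE and CENPF were called with the Pico kit alone.

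Of the 7 kinesins 6 and 4 were called. KIF11, which pushes spindle poles apart, had 86 and 532 CPM (lowest 1.21) against 23.6 and 232, and 120 and 354 against 22.8 and 229. KIF18A had 4.16 and 191 against 2.87 and 68.8, and 17.6 and 165 against 11.2 and 117. KIF20A had 0 and 369 against 0 and 5.29, and 3.23 and 238 against 0 and 116. With 13 counts in all A375 wells of the Pico kit, KIF20A had the largest fold there, 59.9-fold (95% interval of the log2 ratio -6.82 to -5.12), but only 3.59-fold with the SMART-Seq kit. KIF2C had 45.8 and 423 against 0 and 222, and 115 and 452 against 6.04 and 276. KIF20B (chr10:89701590-89774939, hg38) stood at log2 -0.24 with the Pico kit and 0.64 with the SMART-Seq kit, and was the one motor above 0 in A375 with a kit.

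Of the 9 spindle and microtubule genes 7 and 5 were called. TPX2, which activates AURKA on the spindle, had 167 and 1054 CPM against 49.3 and 178, and 225 and 889 (lowest 0.863) against 15.1 and 538. NUSAP1 had 75.3 and 425 against 9.23 and 79.9, and 180 and 489 against 4.01 and 207. CKAP2 had 64.6 and 759 (lowest 2.42) against 22 and 126, and 132 and 302 against 21.2 and 290. DLGAP5, a spindle fiber protein, had 1.73 and 390 against 0 and 53.3, and 57.3 and 334 against 0 and 93.3. GTSE1 had 8.38 and 216 against 0 and 66.3, and 28.8 and 162 against 0 and 64.8. HMMR and ASPM were called with the Pico kit alone, and ASPM was at log2 0.31 with the SMART-Seq kit. CKAP5 and CKAP2L stood at -0.55 and -0.77 with the Pico kit and at -0.088 and -0.29 with the SMART-Seq kit.

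Of the 7 chromosome structure genes 6 and 4 were called. MKI67, which coats mitotic chromosomes and is the antigen read as Ki-67 in pathology (chr10:128096659-128126423, hg38), had 933 and 4089 CPM against 20.1 and 1029, and 1263 and 1940 (lowest 45.7) against 4.65 and 1046. The Jurkat median lay above the highest A375 well with the SMART-Seq kit and just under it with the Pico kit, and 10 of 17 and 8 of 16 A375 wells had at least 5 counts. SMC2, the partner of SMC4, had 259 and 683 (lowest 50.6) against 55.2 and 216, and 246 and 357 (lowest 5.18) against 77.9 and 239 (lowest 2.88). NCAPG had 67.5 and 417 against 0 and 179, and 161 and 566 against 0 and 365. NCAPH had 72 and 181 against 0 and 71.2, and 48.9 and 195 against 0 and 82. TOP2A, the topoisomerase that untangles sister chromatids, and NCAPD2 were called with the Pico kit alone. The 3 midzone and cytokinesis genes ANLN, PRC1 and ECT2 were called with the Pico kit (log2 -1.09, -1.26 and -1.17) and not with the SMART-Seq kit (-0.25, 0.27 and -0.89).

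Genes of the same process outside the list, also chosen with earlier results of these data known, gave counts of the same order. Of 61 other mitosis genes, 57 and 60 were compared, 41 and 37 were lower in A375 and 0 and 1 higher, with median log2 ratios of -1.88 and -1.32. Of 40 DNA replication genes, 32 of 40 and 32 of 39 were lower and 0 higher (median -1.80 and -1.79). The 12 reference genes had 4 and 3 lower and 0 higher (median -0.71 and -0.52).

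Between the kits, which were used on different cells, the pooled levels of the members leaned towards the SMART-Seq kit. The median summed level with the Pico and SMART-Seq kits was 4367 and 7048 CPM in Jurkat, but 1013 and 1051 CPM in A375. In Jurkat 6 of 49 were at least 2-fold higher with the SMART-Seq kit and 0 lower, against 8.03% higher and 7.84% lower of 10506 genes, with a median log2 ratio of 0.31. These were SPC25 (2.53-fold), CCNB1 (2.45-fold), PLK1 (2.34-fold), CENPE (2.33-fold), CENPA (2.24-fold) and DLGAP5 (2.07-fold). The 6 of 49 lay near the background, and the count was from 3 to 13 with any 1 well left out. It was 13 without the Pico well at 21987 CPM, 11 without the one at 28281 CPM, and 3 without the SMART-Seq well at 15781, 16029 or 18371 CPM. In A375 22 of 48 members compared were higher with the SMART-Seq kit and 0 lower, against 5.04% higher and 3.6% lower of 11254 genes, with a median of 0.90. That count was 22 without the 3 wells of low protein coding share and 5 without the A375 well at 18580 CPM. KIF20A (4.80), PLK1 (3.38), HMMR (3.16), CENPA (2.90) and CENPE (2.61) had the largest log2 ratios, and all 6 cyclins and entry kinases were among the 22. CCNB1, PLK1, CENPA and CENPE were called in both lines, but none was shared by the mean of wells or with wells thinned to 200000 counts, where the Jurkat count was 1, and without the A375 well at 18580 CPM only CENPE and PLK1 were. The DNA replication genes stood on the other side in both lines, at a median of -0.73 in Jurkat and -0.51 in A375.

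Across single cells of a line the members varied together. Spearman's rho was taken over wells for each pair of members detected in at least 50% of the wells of a group, and is given as a description, since wells share depth and kit. In Jurkat with the Pico kit the median over 903 pairs of 43 members was 0.46 (n = 18 wells), and 97.1% of pairs were above 0, while the median over all gene pairs that passed the same filter was 0.0093. With the SMART-Seq kit it was 0.61 over 1128 pairs of 48 members (n = 18), with 99.5% above 0 and 0.0085 over all genes. In A375 it was 0.56 over 190 pairs of 20 members (n = 17) and 0.54 over 253 pairs of 23 members (n = 16). The A375 median over all genes was 0.21 with the Pico kit and 0.029 with the SMART-Seq kit. Without the 3 wells of low protein coding share the members' medians were 0.53 and 0.59 and those of all genes 0.011 and 0.014. The closest pairs were CENPF and TPX2 (0.88) in Jurkat with the Pico kit and NUSAP1 and TOP2A (0.95) with the SMART-Seq kit, SMC2 and SMC4 (0.89) in A375 with the Pico kit and KIF14 and TPX2 (0.85) with the SMART-Seq kit.

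Members differed in how closely they followed the others. For each, rho was taken with the sum of the other members, and it was above 0 for all 49 in every group. In Jurkat the highest mean of the 2 kits was that of TPX2 (0.83 with the Pico kit and 0.94 with the SMART-Seq kit), followed by AURKB (0.88 and 0.89), MKI67 (0.90 and 0.82), CDCA8 (0.82 and 0.90) and ASPM (0.78 and 0.85). AURKB and CDCA8 are both subunits of the passenger complex, whose 3 genes had the highest median of any role list in Jurkat with either kit (0.82 and 0.89). The lowest in Jurkat were SMC2 (0.24 and 0.46), ECT2 (0.25 and 0.52), PTTG1 (0.34 and 0.55), NCAPD2 (0.43 and 0.50) and SMC4 (0.45 and 0.48). This order did not hold in A375. Over all wells used there, SMC4 was the highest with the Pico kit (0.87 and 0.81) and ECT2 with the SMART-Seq kit (0.75 and 0.86). There SMC2 had 0.81 and 0.63, NCAPD2 0.82 and 0.66, and PTTG1 0.33 and 0.67. SMC2, SMC4 and NCAPD2 encode condensin subunits, were detected in every Jurkat well with the Pico kit, and thus varied without being absent. Without the A375 wells of low protein coding share all 49 also stood above 0 with either kit, but the leading members changed. ANLN was then highest with the Pico kit (0.91, with SMC4 at 0.82) and BUB1B with the SMART-Seq kit (0.88, with ECT2 at 0.85). PTTG1 with the Pico kit was then at 0.046. The order of the 49 members in the Jurkat wells of one kit resembled that in the other only in part (rho 0.50 across the genes, which share their wells). Members with the CHR letters upstream (25) had a median of 0.70 in Jurkat, and the 18 without them 0.73.

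**Figure D4:**
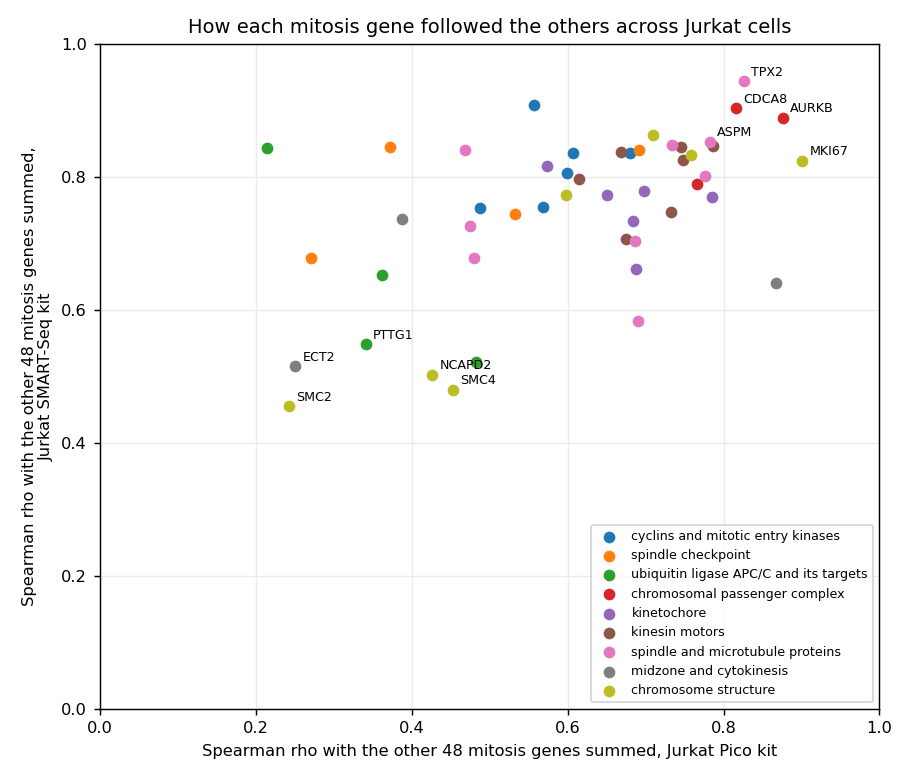
Spearman rho of each member with the sum of the other 48 across Jurkat wells, with the Pico kit (horizontal axis) and the SMART-Seq kit (vertical axis, n = 18 wells each), colored by role. TPX2, AURKB, MKI67, CDCA8 and ASPM sit at the upper right and SMC2, ECT2, PTTG1, NCAPD2 and SMC4 at the lower left.

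In Jurkat the wells with most mitosis RNA were not those with most replication or histone RNA. Replication-dependent histone genes are transcribed in S phase and their messages lack poly(A) tails, which total RNA libraries keep. In Jurkat with the Pico kit the highest well (28281 CPM of the members) had 45.8 CPM of histone genes and 1563 CPM of DNA replication genes. The next, at 21987, had 2511 and 2001, and the third, at 14356, had 1747 and 3239. The highest histone levels of that group, 36693, 30147 and 25565 CPM, were in wells at 4868, 10997 and 7517 CPM of the members, with 10629, 7498 and 9264 CPM of replication genes. The lowest well, at 1448, had 3184 CPM of histone and 5253 CPM of replication genes. The 5 wells from 4868 to 10997 CPM of the members all had from 18922 to 36693 CPM of histone genes, and of the wells below them the highest had 13906.

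The SMART-Seq wells of Jurkat had the same profile in the middle and at the top. The 6 wells between 6833 and 8975 CPM of the members all had from 22585 to 44055 CPM of histone genes. The 4 wells above them, from 13873 to 18371, had 3091, 2980, 2673 and 5938 CPM of histone genes and 3548, 3912, 3400 and 2220 CPM of replication genes. No well under 6833 CPM of the members had more than 5544 CPM of histone genes. The lowest well, at 1171 CPM of the members, had the lowest histone (1189 CPM) and replication (1033 CPM) levels of the group. The well at 3462 had 2318 CPM of replication genes, so low levels were not confined to the highest wells. Over the same wells the 12 reference genes together stayed between 8594 and 15364 CPM. In A375 histone levels reached at most 5348 and 5790 CPM with the Pico and SMART-Seq kits. The A375 wells of the Pico kit did not have the Jurkat profile: the highest, at 5864 CPM of the members, held the group's highest histone level, and the third, at 5660, held its highest level of replication genes (5296 CPM). The 2 highest A375 wells with the SMART-Seq kit, 18580 and 16299 CPM, had 131 and 1763 CPM of histone genes, and the third, at 5101, had 5790.

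**Figure D5:**
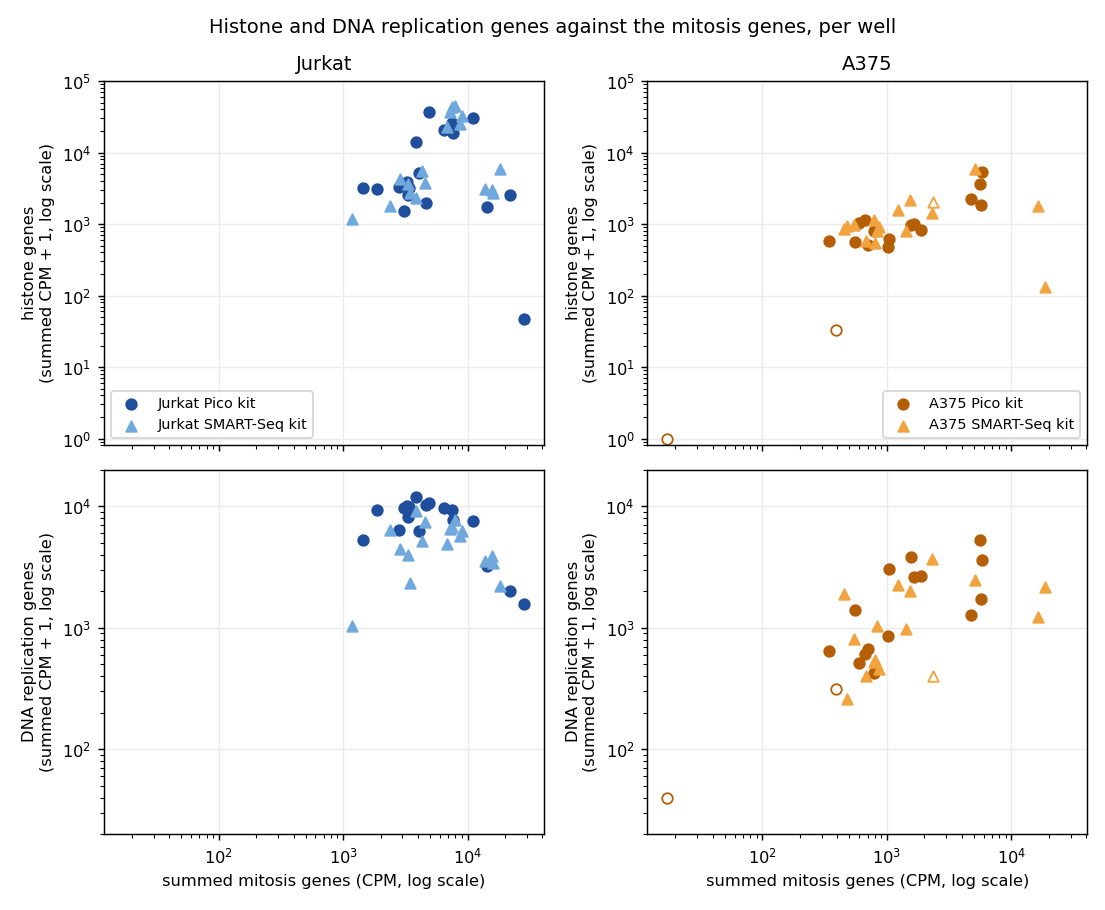
Summed histone genes (upper row) and DNA replication genes (lower row) against the summed mitosis genes in each well, as CPM on log axes (1 CPM added on the vertical axis), for Jurkat (left) and A375 (right), with a point shape for each kit and open points for the 3 A375 wells under 50% protein coding. In Jurkat the wells from 13873 CPM of mitosis genes upwards have lower histone and replication levels than the wells in the middle, which hold the histone peak. Low levels also occur in wells with few mitosis counts.

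Over all wells of a group, rank correlations with the replication genes were below 0 in Jurkat and above 0 in A375. Between the summed members and the replication genes rho was -0.36 and -0.10 in Jurkat (n = 18 each) and 0.78 and 0.53 in A375 (n = 17 and 16), or 0.69 and 0.66 without the wells of low protein coding share. Between the summed members and the histone genes rho was 0.049 and 0.40 in Jurkat and 0.76 and 0.36 in A375, or 0.67 and 0.30 without those wells. Single members varied together over these wells, so their counts restate the relation of the sum and add no separate evidence. Against replication, 46 and 35 of 49 were below 0 in Jurkat and 0 and 0 of 49 in A375, or 1 and 1 without those wells. The share of all genes below 0 was not computed. The total counts of a well moved with its summed level to differing degrees, at rho 0.22 and 0.53 in Jurkat and 0.47 and 0.059 in A375, or 0.28 and 0.10 without those wells. For the protein coding share of a well rho was 0.55 and 0.49 in Jurkat and 0.14 and 0.31 in A375, or -0.20 and 0.46 without those wells. The part of total counts and of the protein coding share in these relations was not tested.

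Genes outside the list were searched for the most similar pattern by rho with the summed members over the Jurkat wells of the Pico kit, among 6732 genes. Of the 10 highest, 5 were among the other mitosis genes, which made up 52 of the 6732: TUBB4B (0.79), KIF18B (0.78), HMGB2 (0.78), FOXM1 (0.77) and INCENP (0.75). Over the SMART-Seq wells, whose rho values the ranking did not use, these 5 genes had rho of 0.78, 0.85, 0.93, 0.83 and 0.89. The list they belong to was chosen with earlier results of these data known. FOXM1 is a transcription factor of G2 and M genes, INCENP the scaffold of the passenger complex, and HMGB2 a chromatin protein that ranked first of all 6732 genes in the SMART-Seq wells. HJURP, the chaperone that loads CENPA, had 0.78 and 0.71, and RAD21, a cohesin subunit, 0.75 and 0.71. The remaining 3 did not carry over: CEP85 had 0.80 and 0.027, ARAP1 0.75 and -0.42, and IRAG2 0.75 and 0.28. The median over all 6732 genes was 0.016 and 0.030, and over the 52 other mitosis genes among them 0.45 and 0.645.

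Transcripts of 3 members differed in share between the lines. Of the 49, 34 had at least 200 counts in each group, and 4 transcripts of 3 genes differed by at least 20 points with both kits. The same rule was not applied to all genes, so whether the members stand apart from genes at large is not known. MKI67-201 made up 62.8% and 79.4% of MKI67 counts in Jurkat and 42.1% and 33.8% in A375, and MKI67-202 35.6% and 19% against 55.6% and 65.5%. MKI67-202 has exon 7 (chr10:128114928-128116007, 1080 bases, hg38), which MKI67-201 lacks. In single wells with at least 50 MKI67 counts, a minimum set after values were seen, the share of MKI67-202 ran from 0 to 100% and its median was 15.4% and 15.4% in Jurkat (17 and 18 wells) and 33.0% and 51.5% in A375. Only 6 and 4 A375 wells passed that minimum, and the ranges of the lines overlapped. NUSAP1-202 made up 23.4% and 23.3% in Jurkat and 48.3% and 45.8% in A375, where 3 wells per kit had at least 50 counts of the gene. SMC4-210 made up 10.5% and 24.9% in Jurkat and 46.3% and 46.4% in A375. Reads shared by overlapping transcripts were divided by the estimation of the counts, so shares are estimates. Transcripts annotated as retained introns took 7.79% and 5.26% of the members' counts in Jurkat and 5.65% and 4.27% in A375. Single genes departed from this: with the Pico kit they took 54.6% of NCAPH, 65.0% of KIF18A and 43.1% of BUB1 counts in Jurkat. In A375 with that kit the shares were 0, 27.9% and 50.9%. Protein coding transcripts held only 0.81% of CENPA counts in Jurkat and 9.42% of PLK1 counts in A375 with the Pico kit. The ratios of genes given above count all transcripts of a gene.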

How the data were processed

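The submitters' processing notes name STAR 2.5.3, kallisto 0.43.1 and genome build hg38, and the annotation was Ensembl 91. The authors deposited, per well, kallisto estimated counts and TPM for 200471 targets. Of these, 195850 of 200206 Ensembl transcripts were matched to genes through GENCODE 44, and estimated counts and TPM were summed per gene. CPM used the well's total without the ERCC spike-in. Members, role lists and comparison lists were chosen with earlier results of these data known. Called means a ratio of pooled CPM of at least 2, intervals are exact (Poisson, and conditional binomial for ratios, at 95%), and no p-value was computed, since each group was 1 sample. Single-well values were given for the member with the highest Jurkat TPM of each role list and for members called in both kits; 5 members of highest and lowest coupling, the 10 most similar other genes and transcripts 20 points apart were named. No doublets were called. Scripts were tested on simulated data. Alternatives were another denominator, thinning, filters, TPM, means and medians over wells, and wells left out, the last chosen after seeing the data. Python 3.11.15, numpy 2.4.6, pandas 2.3.3 and scipy 1.17.1 were used.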

Additional observations from a re-analysis of the deposited data

How the results depend on the processing

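Of 69 recomputed values, 64 stayed within the spread over wells or pairs (for counts of members, within 1.5 times) and 0 changed direction. Those that moved were these. The log2 ratio of A375 over Jurkat with the SMART-Seq kit was -1.17, and -2.75 by the median over wells. The 6 members apart between kits in Jurkat became 1 with wells thinned to 200000 counts, 1 by the mean of wells and 3 by the mean of deposited TPM. The 22 in A375 became 12 by the mean of deposited TPM. The cause was not tested. With 1 well left out at a time, the log2 ratio ran from -2.12 to -1.67 with the Pico kit and from -1.68 to -1.04 with the SMART-Seq kit. The members apart between lines ran from 37 to 46 and from 24 to 42, and those apart between kits from 3 to 13 in Jurkat and from 5 to 31 in A375. No paired analysis was possible because the wells carry no replicate numbers that link groups. Depth limits single wells: a gene at 0 in a well of 200000 counts was not detected there, which is not absence.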
